A study of Mus musculus with 11 samples.

Results

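The choroid plexus genes examined here were 10 genes of the 32287 in the count tables, namely Ttr, Enpp2, Kl, Folr1, Clic6, Trpm3, Aqp1, Otx2, Prlr and Slc4a5. They were taken by symbol, and their unique molecular identifiers (UMIs, each standing for 1 captured RNA molecule) were summed per mouse over choroid plexus epithelial cells and, to measure RNA found outside those cells, over endothelial cells (EC), microglia and smooth muscle cells (SMC). Plexus cells were defined by Ttr itself, as barcodes with at least 5% of their UMIs from Ttr, so the high Ttr of these cells is a definition and not a finding. This rule gave 305 plexus cells of 58585 kept cells, set beside 33176 EC, 14030 microglia and 2147 SMC.

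The libraries came from brain vessel fragments, captured on beads that bind the endothelial antigen CD31 and dissociated into single cells, of 11 untreated mice. The 6 R182C-TgN3 mice carried human NOTCH3 bearing R182C, a variant of CADASIL, the inherited small vessel disease, and 3 of them were 6 months and 3 were 9 months old. The 5 WT-TgN3 control mice carried a wild-type human NOTCH3 transgene, and 3 were 6 months and 2 were 9 months old. Both sexes were present in each genotype at each age, each library was 1 mouse, and a human NOTCH3 transgene was shared by all groups. The labels gave 4 batch dates, of which batch 1 held R182C-TgN3 1 and 2 with WT-TgN3 4 and 5 at 9 months, batch 2 only R182C-TgN3 3 at 9 months, batch 3 R182C-TgN3 4 and 5 with WT-TgN3 1 and 2 at 6 months, and batch 4 R182C-TgN3 6 with WT-TgN3 3 at 6 months. Mice are numbered within their genotype.

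The choroid plexus is a folded, vascular tissue in the brain ventricles whose epithelium secretes cerebrospinal fluid. Its cells move ions and water from blood to ventricle, and they export proteins such as transthyretin, the carrier of thyroxine and retinol-binding protein that Ttr encodes. In droplet sequencing, RNA released from broken cells is captured together with intact cells of any type, so a very abundant transcript of 1 cell type can be counted in all others. Fenestrated EC line the leaky capillaries of the plexus and of a few other brain regions.

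Libraries held 3416 to 10430 barcodes and 17550806 to 64215050 UMIs, and kept cells had a median of 3568 to 7718.5 UMIs per library. Barcode sequences were shared between libraries more often among Ttr-rich barcodes than among others. Of the 1137 deposited barcodes with Ttr at 5% or more, 271, or 23.8%, had a sequence also present in another library, against 3.46% of the other barcodes. These shared Ttr-rich barcodes had a median of 720 UMIs against 22576 in the unshared ones. In all, 966 sequences occurred in at least 2 libraries, and of the 83 that occurred in 5 or more, 78 were in 5 or more of the 6-month libraries. Only 22 of the 305 kept plexus cells had a shared sequence, and relations across mice are given with and without shared barcodes.

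Most Ttr-rich barcodes did not pass the cell filters. Of the 1137, 257 had under 500 genes, 547 of the rest had over 10% mitochondrial UMIs, and 28 were removed as doublets. The median mitochondrial share of the 1137 was 10.9%. Among kept cells, which the filter held to at most 10%, it was 6.66% in plexus cells and 3.15% in all types together. With a limit of 20% mitochondrial UMIs the plexus cells numbered 764. The kept plexus cells were unevenly spread over mice. R182C-TgN3 1 to 6 gave 3, 21, 8, 105, 8 and 26 cells, and WT-TgN3 1 to 5 gave 57, 6, 16, 12 and 43 cells. R182C-TgN3 4 and WT-TgN3 1 thus held most cells, and their cells stood apart by their median Ttr share, 8.48% and 10.3%, against 18.9% to 23.7% in the other 9 libraries. The highest Ttr share below the threshold was 4.99% and the lowest above it 5.17%. Of the 28 kept cells at 4% to 5%, 18 came from R182C-TgN3 4, as did 17 of the 20 cells at 5% to 6%. When cells were clustered without any of the 10 genes, 296 of the 305 plexus cells fell into the cluster named choroid plexus epithelium from its other markers, 8 into an unnamed cluster and 1 among microglia, which was left out of the microglia sums.

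Regulatory sequence was shown for 4 genes, Otx2 because its product is the homeodomain transcription factor of this epithelium, and Kl, Aqp1 and Slc4a5 because their levels outside the plexus departed most from that of Ttr among the genes with an entry in the promoter table. Promoter windows of 300 bases, 250 before and 50 after the start site, were taken from RefSeq on GRCm38.p6, and 6 of the members had 12 entries there. The motif TAATCC, the usual core bound by OTX proteins, was searched on both strands, on which it reads TAATCC or GGATTA, and TAATCT or AGATTA was searched as a variant. TAATCC was found in 1 of the 12 windows, an Otx2 promoter, and in 7.06% of all 32851 promoter windows. Otx2 had several windows, and the printed window is the only Otx2 window with the match. TAATCT was found in 0 of the 12 and in 8.19% of all. The match is printed in capitals and is a description of the letters only. The 4 genes lie on GRCm38 at chr14:48657677-48673819 on the minus strand (Otx2), chr5:150952607-150993817 on the plus strand (Kl), chr6:55336432-55348555 on the plus strand (Aqp1) and chr6:83219828-83304945 on the plus strand (Slc4a5), all annotated as protein coding. The windows cover chr14:48665060-48665359, chr5:150952357-150952656, chr6:55336049-55336348 and chr6:83237125-83237424, on the strand of each gene.
Otx2: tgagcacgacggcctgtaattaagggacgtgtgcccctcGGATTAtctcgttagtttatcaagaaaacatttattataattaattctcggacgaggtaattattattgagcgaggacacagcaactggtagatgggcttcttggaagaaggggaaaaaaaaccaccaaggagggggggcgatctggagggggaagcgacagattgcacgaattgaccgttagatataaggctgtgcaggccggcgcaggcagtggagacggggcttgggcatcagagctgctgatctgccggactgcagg
Kl: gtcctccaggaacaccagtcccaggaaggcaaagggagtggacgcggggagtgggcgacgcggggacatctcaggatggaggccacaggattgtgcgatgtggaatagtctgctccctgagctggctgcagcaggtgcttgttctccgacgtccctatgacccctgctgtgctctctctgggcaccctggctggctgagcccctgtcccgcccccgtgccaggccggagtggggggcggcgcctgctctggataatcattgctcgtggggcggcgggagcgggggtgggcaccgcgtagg
Aqp1: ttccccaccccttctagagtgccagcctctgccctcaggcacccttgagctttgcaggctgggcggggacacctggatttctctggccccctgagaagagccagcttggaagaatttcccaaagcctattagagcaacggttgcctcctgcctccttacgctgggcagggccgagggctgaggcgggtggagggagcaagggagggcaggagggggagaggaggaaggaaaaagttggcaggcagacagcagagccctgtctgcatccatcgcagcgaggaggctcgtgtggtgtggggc
Slc4a5: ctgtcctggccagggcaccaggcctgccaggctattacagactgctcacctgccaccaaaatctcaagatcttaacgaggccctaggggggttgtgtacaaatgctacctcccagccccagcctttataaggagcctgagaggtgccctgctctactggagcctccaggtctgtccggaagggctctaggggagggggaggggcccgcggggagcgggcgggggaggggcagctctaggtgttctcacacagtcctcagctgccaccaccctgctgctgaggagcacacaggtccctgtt

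Within the plexus cells the 10 genes differed widely in abundance. Levels are given as CPM, in which the UMIs of a gene are divided by all UMIs of the same cells and scaled to the usual common total, summed over all 305 cells, on a 3′ end assay in which transcript length does not enter. Among the secreted products, Ttr reached 213193 CPM, or 3166 UMIs per cell, and Enpp2, which encodes the lysophosphatidic acid producing enzyme autotaxin, reached 17044 CPM. Kl, which encodes klotho, the co-receptor for FGF23 whose ectodomain is shed into the fluid, was at 1126 CPM. Among the receptors and carriers, Folr1, the folate receptor that brings folate into cerebrospinal fluid, was at 917 CPM, and Prlr, the prolactin receptor, at 1263 CPM. Among the channels and transporters, Trpm3, a calcium-permeable cation channel, was at 4232 CPM, Clic6, a chloride intracellular channel family member, at 491 CPM, Slc4a5, a sodium bicarbonate cotransporter, at 281 CPM, and Aqp1, the water channel of the apical membrane, at 96.0 CPM. Otx2 was at 262 CPM. Ttr was thus more abundant than any other member, and Aqp1 less abundant than any other member.

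Among the 5 mice with at least 20 plexus cells, levels of each member differed, and R182C-TgN3 4 was the lowest of the 5 for all 10 members. Ttr was 123055 CPM in R182C-TgN3 4, 132831 in WT-TgN3 1, 228304 in R182C-TgN3 2, 228361 in WT-TgN3 5 and 264359 in R182C-TgN3 6. Enpp2 followed with 6202, 12945, 13333, 20276 and 18996 CPM in the same order of mice. Otx2 was 67.8 CPM in R182C-TgN3 4 and 192 in WT-TgN3 1, and 209, 314 and 265 CPM in the remaining mice of that order. These levels were thus lower in R182C-TgN3 4 and WT-TgN3 1, the libraries with the low median Ttr share, than in the others. Trpm3 did not keep the order of Ttr, with 5748 CPM in R182C-TgN3 2 and 2776 in R182C-TgN3 6. The mean over these mice was 195382 CPM for Ttr (SD 63390, n = 5), 14350 for Enpp2 (SD 5615, n = 5) and 235 for Slc4a5 (SD 70.3, n = 5).

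After thinning each cell to 2000 UMIs, which left out 99 of the 305 plexus cells, Enpp2 was found in 99.5% of plexus cells, Trpm3 in 87.9%, Kl in 76.2%, Folr1 in 71.8% and Prlr in 67.5%. Clic6 was found in 45.1%, Slc4a5 in 31.1%, Otx2 in 28.6% and Aqp1 in 15.05%. Without thinning, when plexus cells had a median of 3434 UMIs, the shares were 99.7% for Enpp2 and 35.4% for Aqp1.

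**Figure D1:**
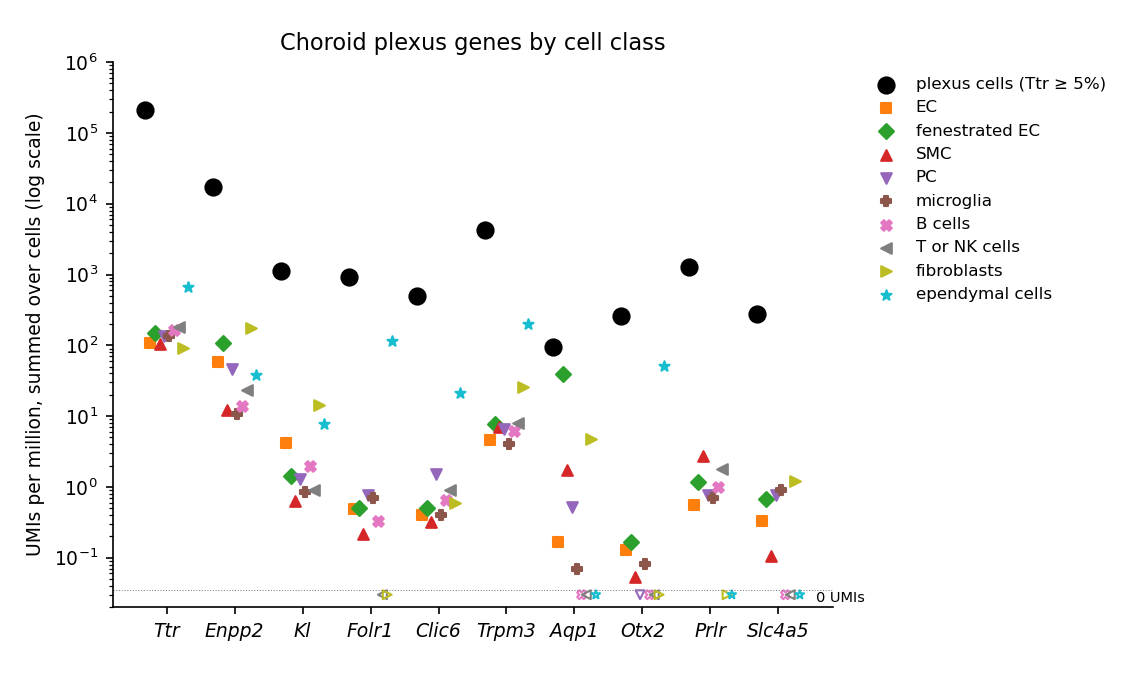
Level of each of the 10 genes (horizontal axis) in 10 cell classes, as CPM summed over the cells of a class on a log scale, with open symbols on the bottom line for classes with 0 UMIs. Plexus cells, the large black points, lay above the 9 other classes for all 10 genes, by least for Aqp1, where fenestrated EC reached 39.4 CPM against 96.0 in plexus cells.

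Outside the plexus, Ttr was counted in every cell class. Its mean over mice was 137 CPM in microglia (SD 83.5, n = 11), 105 in EC (SD 64.6, n = 11) and 90.9 in SMC (SD 62.2, n = 11), and 129 in fenestrated EC (SD 85.5, n = 11) and 138 in pericytes (PC, SD 112, n = 11). B cells, with at least 20 cells in 10 mice, had 172 CPM (SD 108, n = 10), and T or NK cells, in 4 mice, 189 (SD 64.4, n = 4). Ordered by size, neighbouring means differed by less than the SD over mice. Within a mouse, however, Ttr CPM was higher in microglia than in EC in 11 of 11 mice, by a mean ratio of 1.32 (SD 0.215, n = 11). It was lower in SMC than in microglia in 11 of 11 mice. Counted per cell the order differed, highest in SMC and lowest in microglia. The counts were 25430 Ttr UMIs in 33176 EC, 9906 in 14030 microglia and 1981 in 2147 SMC. Among EC clusters, Ttr ran from 63.5 CPM at a median of 11450 UMIs per cell to 178 CPM at 3409. The part of depth in the order by CPM was not tested. The cells of the plexus cluster with Ttr under 5% had 28379 CPM, and ependymal cells, of which 185 of 202 came from R182C-TgN3 4, had 662 CPM. Of all Ttr UMIs in a library, 92.8% to 99.6% lay in barcodes with Ttr at 5% or more.

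The level outside the plexus differed widely between mice. In EC of the WT-TgN3 mice, Ttr was 75.5, 98.5, 183, 193 and 135 CPM in mice 1 to 5. In EC of the R182C-TgN3 mice it ranged from 12.8 CPM, in mouse 5, through a median of 55.3 to 163 CPM, in mouse 2. The groups overlapped, since R182C-TgN3 2, 3 and 6 lay within the range of the control mice, while R182C-TgN3 1, 4 and 5 lay below all of them. In microglia, the WT-TgN3 mice had 85.5, 148, 197, 288 and 183 CPM, and the R182C-TgN3 mice ranged from 14.6 through a median of 81.3 to 199 CPM. In SMC, the WT-TgN3 mice had 52.2, 78.2, 140, 201 and 126 CPM, and the R182C-TgN3 mice ranged from 6.08 through a median of 45.8 to 142 CPM. The same mice were high and low in each class, with R182C-TgN3 5 lowest and WT-TgN3 4 highest in all 3 classes. Between these mice, Ttr differed 15.1-fold in EC, 19.8-fold in microglia and 33.1-fold in SMC. In terms of cells thinned to 2000 UMIs, Ttr was found in 20.4% of EC, 20.2% of microglia and 15.9% of SMC, and the share of EC ran from 3.81% to 38.3% between mice. Median depths without thinning were 4962 UMIs in EC, 4978 in microglia and 8119 in SMC, and the unthinned shares were 42.0%, 39.6% and 47.3%.

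**Figure D2:**
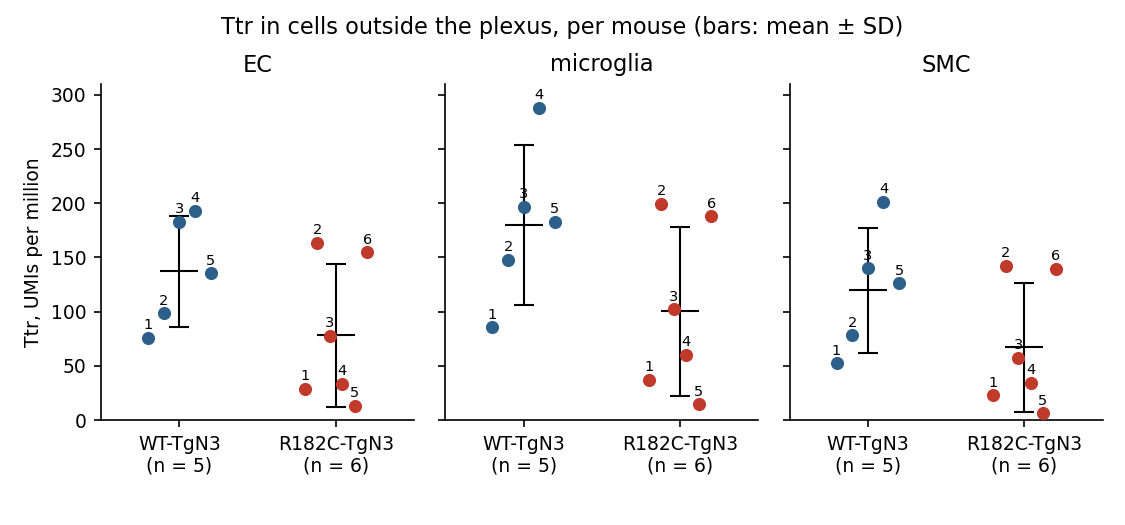
Ttr in CPM (vertical axis) summed over EC, microglia and SMC of each mouse, with 1 point per mouse labelled by its number and bars for the mean and SD of each genotype. R182C-TgN3 mice 2, 3 and 6 sat within the range of the WT-TgN3 mice and mice 1, 4 and 5 below it in each class.

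The other members were next set against Ttr. If all of a member's UMIs outside the plexus came with Ttr in the proportion seen in plexus cells, its count would equal the Ttr count of that class multiplied by the member's ratio to Ttr in plexus cells. The ratio of the count found to this value is a description, and its 95% exact Poisson interval covers the counting error of the count found only. In microglia, Enpp2 was at 0.986 times this value (0.918 to 1.06, from 781 UMIs), Kl at 1.19 (0.909 to 1.52), Folr1 at 1.20 (0.891 to 1.57), Prlr at 0.852 (0.632 to 1.12), Clic6 at 1.27 (0.851 to 1.83) and Aqp1 at 1.12 (0.364 to 2.61, from 5 UMIs). Otx2 had 6 UMIs in microglia, at 0.493 times the value (0.181 to 1.07). The intervals of these 7 members thus held the ratio of 1, while those of Slc4a5 and Trpm3, given with the channels, did not. This depended on the cells that set the proportion for 2 of the 7. With the proportion taken from all 1137 Ttr-rich barcodes, Prlr was at 0.666 (0.494 to 0.877) and Enpp2 at 0.913 (0.850 to 0.979) in microglia, both below 1, and 5 members still held 1. The proportion also differed between mice, which no interval here covers. Over the 5 mice with at least 20 plexus cells, Enpp2 had 50.4 to 97.5 UMIs per 1000 Ttr UMIs in plexus cells. Kl had 3.84 to 7.84, Prlr 3.64 to 6.11 and Trpm3 10.5 to 25.2. WT-TgN3 5 gave 426048 of the 772770 plexus Ttr UMIs of these mice.

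In EC, Enpp2 and Kl stood far above the proportion to Ttr. Enpp2 had 13587 UMIs in EC where the proportion gave 2033, a ratio of 6.68 (6.57 to 6.80), above 1 in 11 of 11 mice. Kl had 980 where the proportion gave 134, a ratio of 7.30 (6.85 to 7.77), above 1 in 11 of 11 mice. Enpp2 in EC was 60.5, 55.7, 88.5, 64.8 and 62.7 CPM in WT-TgN3 mice 1 to 5, and ranged from 45.9 through a median of 51.3 to 67.7 CPM in R182C-TgN3 mice. These values of Enpp2 lay close together in mice whose Ttr differed 15.1-fold. In microglia, by contrast, Enpp2 was 9.47, 11.8, 17.4, 26.7 and 13.4 CPM in WT-TgN3 mice 1 to 5 and from 2.68 through 7.14 to 12.6 CPM in R182C-TgN3 mice, with the lowest and the highest value in the same mice as for Ttr. Enpp2 was higher in EC than in microglia in 11 of 11 mice, and so was Kl. In thinned cells, Enpp2 was found in 10.2% of EC, 2.14% of microglia and 2.44% of SMC, and in EC the share ran from 8.09% to 13.7% between mice. The intervals of Folr1 (1.02, 0.843 to 1.23), Otx2 (0.960, 0.647 to 1.37) and Prlr (0.870, 0.727 to 1.032) held the ratio of 1 in EC. With all Ttr-rich barcodes, those of Folr1 (0.937, 0.771 to 1.13) and Otx2 (1.01, 0.681 to 1.44) still did, whereas Prlr lay below 1 at 0.679 (0.568 to 0.806). Fenestrated EC had more Enpp2 than other EC, with a mean of 116 CPM (SD 26.5, n = 11) against 59.0 CPM (SD 12.1, n = 11), and with 121 CPM (SD 21.8, n = 10) without WT-TgN3 5, which had 66.2 CPM.

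Channels and transporters showed their own patterns. Aqp1 was at 35.9 times the value set by Ttr in SMC (24.5 to 50.6, from 32 UMIs), where it was higher than in EC in 10 of 11 mice, and WT-TgN3 4 gave 16 of these UMIs. Its level was far higher in fenestrated EC, with a mean of 46.0 CPM (SD 46.5, n = 11) and a range of 11.6 to 161 CPM over mice, and it was 0.168 CPM in the other EC summed together. Slc4a5 was at 5.05 times the value in microglia (3.91 to 6.43, from 66 UMIs), above 1 in 10 of 11 mice, and at 2.30 times in EC (1.81 to 2.87). In microglia it ranged only from 0.287 to 1.53 CPM over mice. Trpm3 was above the pooled proportion in all 3 classes, at 2.15 times in EC (2.03 to 2.29), 1.48 in microglia (1.32 to 1.67) and 3.36 in SMC (2.81 to 3.98). In plexus cells, however, it reached 40.4 UMIs per 1000 Ttr UMIs in WT-TgN3 3 (16 cells) and 41.3 in R182C-TgN3 5 (8 cells). The medians over mice were 35.3 in microglia, 48.8 in EC and 89.1 in SMC, so that of microglia lay within the spread of plexus cells. Clic6 was at 1.59 times in EC (1.28 to 1.95, from 93 UMIs), above the proportion in 6 of 11 mice. Its median over mice in EC was 2.91 UMIs per 1000 Ttr UMIs. That lay within the spread of plexus cells, which reached 3.54 in WT-TgN3 3 (16 cells). Prlr was at 4.35 times in SMC (3.24 to 5.71, from 51 UMIs), of which R182C-TgN3 1 gave 17, and it was above the proportion in 7 of 11 mice. Taking the proportions from all 1137 Ttr-rich barcodes instead of the 305 kept cells gave 6.19 for Enpp2, 6.95 for Kl, 1.81 for Trpm3, 1.55 for Clic6 and 2.04 for Slc4a5 in EC, 29.1 for Aqp1, 2.81 for Trpm3 and 3.39 for Prlr in SMC, and 4.49 for Slc4a5 and 1.25 for Trpm3 in microglia. The intervals of all of these stayed above 1.

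**Figure D3:**
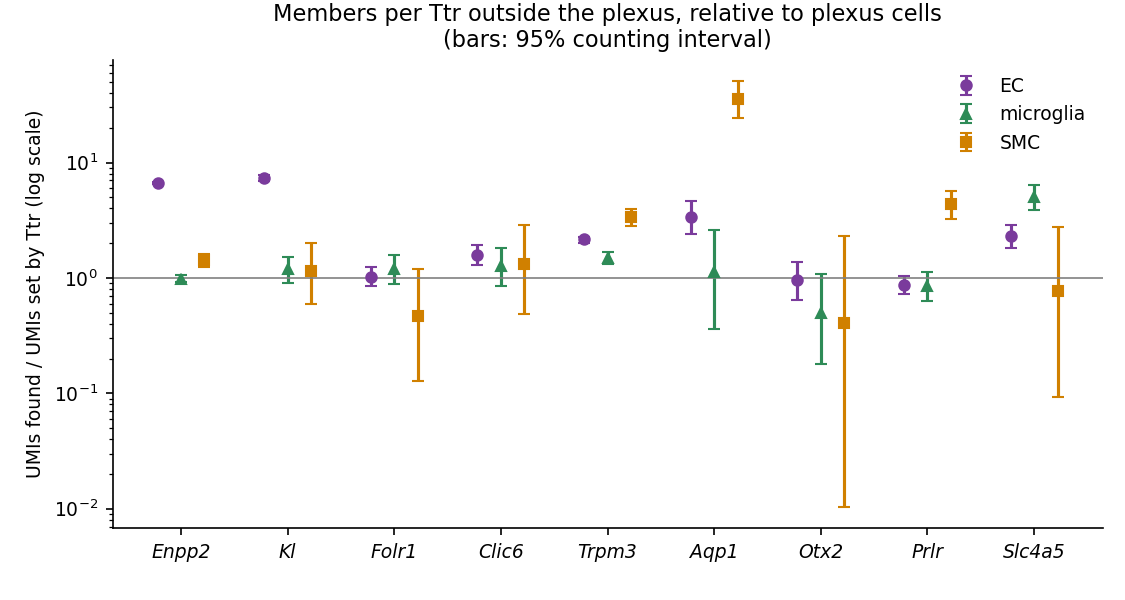
UMIs found for each member outside the plexus, divided by the UMIs set by the Ttr count of the class and the member's ratio to Ttr in plexus cells (vertical axis, log scale), for EC, microglia and SMC, with bars for the 95% counting interval and a line at 1. Enpp2 and Kl stood at 6.68 and 7.30 in EC and near the line in microglia, Aqp1 stood at 35.9 in SMC and Slc4a5 at 5.05 in microglia.

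Whether the Ttr level outside the plexus follows the number of plexus cells was asked across the 11 mice. No relation with the share of plexus cells among kept cells passed the test. For EC, Pearson's r was -0.26 (permutation test, p = 0.469) and Spearman's rho 0.07 (p = 0.838, n = 11). For microglia r was -0.23 (permutation test, p = 0.502) and rho 0.11 (p = 0.755), and for SMC r was -0.22 (p = 0.540) and rho 0.11 (p = 0.755). Benjamini-Hochberg adjusted values over the 5 relations examined were 0.675 for each of these r and 0.838 for each rho. R182C-TgN3 4, with 2.27% plexus cells, and WT-TgN3 1, with 1.35%, lay far from the median of 0.311%. Without these 2 mice r was 0.54 in EC, 0.50 in microglia and 0.56 in SMC (n = 9), and with values centred within batches it was 0.02, 0.02 and 0.08. Cells of unnamed clusters, which did not enter these sums, made up 35.7% of kept cells in R182C-TgN3 4. The next highest share was 12.96%, in R182C-TgN3 5. The unnamed cluster that held 8 plexus cells had Ttr at 2646 CPM, and 1418 of its 2021 cells came from R182C-TgN3 4. The effect of leaving out unnamed cells on these relations was not tested.

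A second measure, chosen after the data had been seen, was the share of all UMIs of a library that lay in barcodes with Ttr at 5% or more, which counts plexus barcodes also where they failed the cell filters. It was 1.94%, 7.96%, 3.88%, 3.86%, 1.88% and 7.18% in R182C-TgN3 mice 1 to 6, and 4.16%, 4.30%, 6.08%, 8.56% and 7.90% in WT-TgN3 mice 1 to 5. With this share, Ttr in EC had r = 0.92 (permutation test, p = 0.00026, adjusted p = 0.000433) and rho = 0.93 (p = 0.00016, n = 11). For microglia r was 0.94 (permutation test, p = 9.0e-05) and rho 0.95 (p = 5e-05), and for SMC r was 0.95 (permutation test, p = 4e-05) and rho 0.95 (p = 5e-05). The coefficients r were 0.88, 0.92 and 0.94 without the 2 mice farthest from the median share, 0.90, 0.90 and 0.92 with values centred within batches, and 0.93, 0.93 and 0.96 without shared barcodes. The share of all deposited barcodes, also examined after the data had been seen, likewise counts plexus barcodes that failed the filters. It gave r of 0.14 in EC, 0.17 in microglia and 0.21 in SMC (n = 11). The adjusted p covers the 5 relations with the share of library UMIs only, and not the choice among measures. All measures came from the same libraries. The barcodes that entered the share of library UMIs were not among the EC, microglia or SMC.

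**Figure D4:**
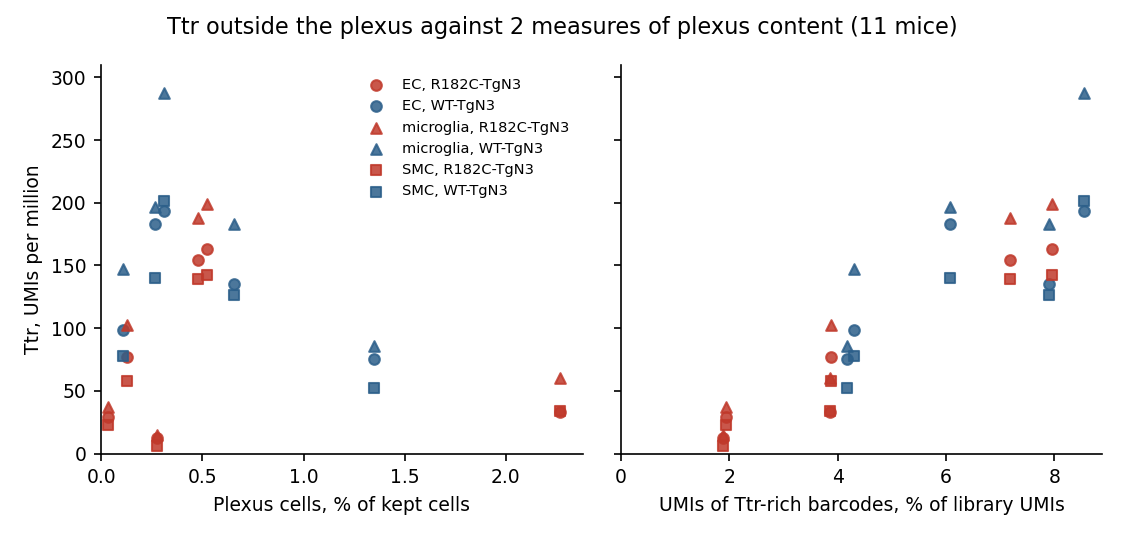
Ttr in CPM (vertical axis) in EC, microglia and SMC of 11 mice against the plexus cells as a percentage of kept cells (left) and against the UMIs of barcodes with Ttr at 5% or more as a percentage of library UMIs (right), coloured by genotype. On the right the points rose from 1.88% to 8.56% of library UMIs with r of 0.92 to 0.95, and on the left R182C-TgN3 4 at 2.27% and WT-TgN3 1 at 1.35% lay apart with low Ttr.

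The 2 remaining relations concerned cells found near the plexus. The share of fenestrated EC among kept cells had a mean of 3.05% (SD 1.28, n = 11) and its relation with the share of plexus cells did not pass the test (r = -0.08, permutation test, p = 0.789, rho = 0.31, p = 0.354, n = 11), and r was 0.79 without the 2 mice named above (n = 9). With the share of library UMIs r was 0.66 (permutation test, p = 0.0214, adjusted p = 0.0268, rho = 0.71, n = 11), and it was 0.72 without the 2 mice farthest from the median. With batch-centred values r was 0.65 (permutation test, p = 0.0426) but rho was 0.52 (p = 0.106). One library stood apart among these cells. WT-TgN3 5 gave 396 of the 1759 fenestrated EC, among them 220 of the 241 cells of 1 fenestrated cluster, and also 218 of the 221 cells of an unnamed cluster led by Prl and Gh, the hormones of the anterior pituitary. The relation with the share of library UMIs no longer passed by r without this mouse (r = 0.64, permutation test, p = 0.0536, rho = 0.70, p = 0.0301, n = 10) or without that fenestrated cluster (r = 0.59, permutation test, p = 0.0566, rho = 0.62, p = 0.0468, n = 11). The share of ependymal cells had r = 0.84 with the share of plexus cells (permutation test, p = 0.0147, adjusted p = 0.0734, n = 11) and rho = 0.55 (p = 0.0850). That relation did not pass the correction, and it rested on R182C-TgN3 4, whose 3.997% ependymal cells stood against 0.130% at most in the other 10 mice, with r = 0.12 without the 2 mice farthest from the median share (n = 9).

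Genotype was examined next. The share of plexus cells averaged 0.617% among R182C-TgN3 mice (SD 0.831, n = 6) and 0.539% among WT-TgN3 mice (SD 0.495, n = 5). These means lay 0.0786 percentage points apart (two-sided exact permutation test over 462 arrangements of the mice, p = 0.877). By share of library UMIs, R182C-TgN3 mice had 4.45% (SD 2.58, n = 6) and WT-TgN3 mice 6.20% (SD 2.01, n = 5), which is -1.75 points for R182C-TgN3 relative to WT-TgN3 (exact permutation test, p = 0.240). Neither difference was larger than the spread between mice.

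In EC, microglia and SMC, no member passed the test between genotypes, by edgeR's quasi-likelihood test on summed counts with Benjamini-Hochberg adjustment over all genes. In EC, 0 of 12768 genes were called, so that percent called was 0, with 135 genes at an unadjusted p under 0.05, and DESeq2 also called 0. Of the 10 members 6 passed the filter on low counts in EC, and all 6 had lower fitted levels in R182C-TgN3 mice. Trpm3 was at 5.72, 7.11, 8.92, 5.76 and 4.33 CPM in EC of WT-TgN3 mice 1 to 5 and ranged from 2.63 through a median of 3.22 to 5.79 CPM in R182C-TgN3 mice, so that the groups overlapped. Its log2 fold change was -0.77 (SE 0.23, unadjusted p = 0.00473, edgeR adjusted p = 1.00). Ttr had a log2 fold change of -0.73 (SE 0.53, edgeR adjusted p = 1.00), Enpp2 -0.28 (SE 0.12), Kl -0.30 (SE 0.24), Folr1 -1.17 (SE 0.52) and Prlr -1.03 (SE 0.67). At an unadjusted p under 0.05 stood 3 of the 6 members, namely Trpm3, Enpp2 (edgeR unadjusted p = 0.0378, adjusted p = 1.00) and Folr1 (edgeR unadjusted p = 0.0407, adjusted p = 1.00), beside the 135 of 12768 genes above. The median over all genes tested in EC was 0.00 and that over the 6 members -0.75.

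In microglia 0 of 10950 genes were called, percent called being 0, with 115 at an unadjusted p under 0.05, and DESeq2 also called 0. The 3 members tested were Ttr at -0.77 (SE 0.46), Enpp2 at -1.001 (SE 0.34, unadjusted p = 0.00871, edgeR adjusted p = 1.00) and Trpm3 at -1.05 (SE 0.36, unadjusted p = 0.0103 in edgeR), so that 2 of 3 had an unadjusted p under 0.05. In SMC 1 of 9017 genes was called, a percent called of 0.0111, and that gene was the human NOTCH3 transgene (log2 fold change 2.48, edgeR adjusted p = 0.000683). Ttr in SMC was at -0.72 (SE 0.44), Enpp2 at -0.94 (SE 0.44) and Trpm3 at -0.13 (SE 0.34), each with an edgeR adjusted p of 1.00, and 1 of these 3, Enpp2 (unadjusted p = 0.0497 in edgeR), had an unadjusted p under 0.05, as had 237 of the 9017 genes. Within batches, mean Ttr in EC was 96.0 CPM in R182C-TgN3 against 164 in WT-TgN3 mice in batch 1 (n = 2 each) and 22.9 against 87.0 in batch 3 (n = 2 each), and the single mice of batch 4 had 155 and 183. Batch 2 held R182C-TgN3 only. The log2 share of library UMIs in Ttr-rich barcodes was added as a covariate after the data were seen. With it, the log2 fold change of Ttr was -0.27 in EC and -0.26 in microglia, and that of Trpm3 was -0.76 and -1.01. This share is defined by Ttr and rose with Ttr in the same cells (r = 0.92 in EC and 0.94 in microglia). The smaller Ttr difference thus cannot be read apart from how the share is defined. The fit cannot show which member differences came with plexus RNA. In bulk sums of this kind, more captured plexus RNA and more RNA made by the cells cannot be told apart. The part of plexus RNA in the member differences was not tested further. No member or other gene was called for a difference of the genotype effect between 6 and 9 months in any of the 3 classes (edgeR, 312, 236 and 187 genes at an unadjusted p under 0.05 in EC, microglia and SMC).

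In plexus cells the genotypes could be compared over 3 R182C-TgN3 and 2 WT-TgN3 mice with at least 20 cells. Sex was unbalanced between them, since R182C-TgN3 2 and 4 were male and R182C-TgN3 6 and both WT-TgN3 mice female. None of 5683 genes was called by edgeR or DESeq2, percent called being 0, with 14 genes at an unadjusted p under 0.05 in edgeR. All 10 members were tested, with log2 fold changes from -0.41 for Slc4a5 (SE 0.44) to 0.28 for Ttr (SE 0.57), and none had an unadjusted p under 0.05. With sex as a covariate Slc4a5 was at 0.039.

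**Figure D5:**
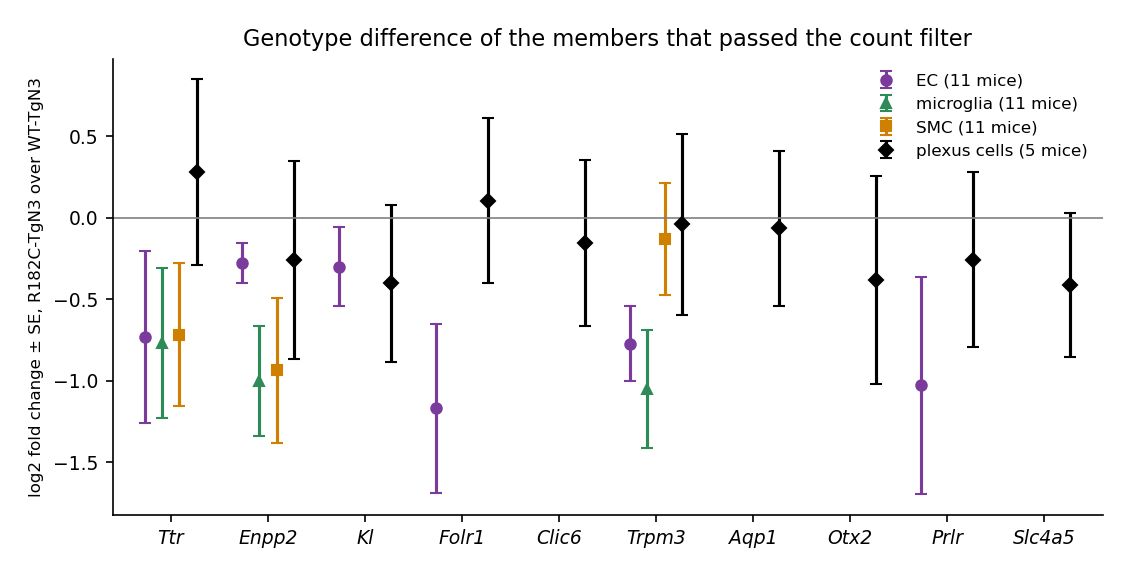
Log2 fold change of R182C-TgN3 over WT-TgN3 mice with its standard error (vertical axis) for the members that passed the count filter in EC, microglia, SMC and plexus cells. The 12 values in EC, microglia and SMC lay below 0, from -0.13 for Trpm3 in SMC to -1.17 for Folr1 in EC, and none passed the test.

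The other genes of the pathway were taken from 2 lists. Of 11 genes of fluid secretion 8 were tested between genotypes in EC, 4 in microglia, 5 in SMC and 11 in plexus cells, and 0 were called in either direction in each class, with list medians of -0.07, -0.01, -0.03 and -0.19 beside medians over all genes of 0.00, 0.00, 0.00 and 0.03. Atp1b1, a gene of this list, was at 1304 CPM in plexus cells, 5.97 CPM in EC and 424 CPM in SMC. Of 10 genes of secreted proteins and carriers 9, 4, 4 and 9 were tested in the same classes, and 0 were called, with medians of -0.11, -0.23, 0.17 and -0.02. Igf2 was at 394 CPM in plexus cells and 2.34 CPM in EC, and Igfbp2, a binding protein of insulin-like growth factors, at 1944 and 1.027 CPM. Igfbp2 stood at 1.031 times the value set by Ttr in EC (0.904 to 1.17) and at 0.996 times in microglia (0.801 to 1.22), but at 7.53 times in SMC (6.32 to 8.91). Most genes of these lists lay above that value. Of the 11 genes of fluid secretion, 10 had an interval above 1 in EC and 10 in microglia, and the interval of the remaining gene held 1. Of the 10 secreted proteins and carriers, 7 lay above 1, 1 below and 2 held 1 in EC, and 7 lay above and 3 held 1 in microglia. A list of 10 marker genes of the plexus epithelium held no members but shared genes with both lists above, so its tallies overlap with theirs. Of these 10, 6 were tested in EC, 2 in microglia, 1 in SMC and 10 in plexus cells, with 0 called. Against the value set by Ttr, 6 of the 10 lay above 1, 1 below and 3 held 1 in EC. In microglia 6 lay above and 4 held 1, and in SMC 4 lay above and 6 held 1. With the proportion taken from all Ttr-rich barcodes, 4 lay above and 6 held 1 in microglia, while the tallies in EC and SMC were the same. Hemoglobin, RNA of another source, served for comparison. Hba-a1 was at 6.86 CPM in EC, 2.75 in microglia, 1.82 in SMC and 15.9 in plexus cells, and Hba-a2 at 4.97, 2.49, 1.07 and 15.5 CPM. Of the 4 hemoglobin genes 4, 3, 0 and 1 were tested between genotypes and 0 were called.

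The members were left out of both rankings that follow. Genes whose level followed Ttr most closely over 10 cell classes were, among 2982 other genes of at least 50 CPM in plexus cells ranked by Pearson's r of log2(CPM + 1), Cldn1 (r = 0.99), Sostdc1 (0.99), Pcolce2 (0.99), Smim22 (0.99) and Gm29538 (0.98), of which Sostdc1, a secreted BMP and WNT antagonist, had means over mice of 898 CPM in plexus cells and 0.391 in EC. Among the members the same r ran from 0.56 for Aqp1 to 0.97 for Clic6. Over the 11 mice, by the mean r of CPM in EC, microglia and SMC among 8257 other genes with a mean of at least 5 CPM in each, Mtch1 (r = 0.76), Nfic (0.69), Ubald2 (0.69), Cers2 (0.67) and Mpv17 (0.67) were closest, and among the members r was 0.81 for Enpp2, above that of Mtch1, 0.68 for Kl, 0.65 for Clic6 and 0.16 for Aqp1. Members were not held to the floor of 5 CPM, and of those named over mice only Enpp2 reached it in each class. Kl, for example, had means of 4.13 CPM in EC, 0.838 in microglia and 0.480 in SMC. The points share libraries and depth, and these values are descriptions.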

How the data were processed

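Single-cell RNA sequencing of CD31-selected brain vessel cells was deposited for 11 mice, 1 library each. The authors aligned reads with Cell Ranger 7.0.0 to the mm10 transcriptome with human NOTCH3 added, and the deposited values are UMI counts per gene and barcode without normalization. Cells needed 500 detected genes or more and no more than 10% of UMIs from mitochondrial genes, and doublets were scored against simulated doublets and removed at 0.8% per 1000 barcodes. Cells were clustered on 2000 variable genes with the 10 members left out (30 components, 15 neighbours, resolution 1), and classes were named from marker lists. The 10 members, the lists and the measures were chosen with earlier results of these data known. Counts were summed per mouse and class (at least 20 cells) and tested with edgeR 4.0.16 (TMM, filterByExpr, quasi-likelihood), without ribosomal, mitochondrial, Gm and Rik genes as in the study's methods, and with DESeq2 1.42.0 as an alternative. The edgeR test was tested on simulated data. Correlations used 100000 permutations and shares an exact permutation test over mice. The text names the members, the first 2 genes of each list (1 of which is not reported here), and the 5 genes most like Ttr over classes and over mice. Each library totalled 17550806 to 64215050 counts. Intervals cover counting error only. Alternatives covered filters, doublets, clustering, the Ttr threshold, covariates, scaling, tools and each mouse left out. From their own microglia analysis the authors left out 1 control, which is not named in the sources used here, so all 11 mice were used.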

Additional observations from a re-analysis of the deposited data

Results flagged for a closer look

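Among 52 groups of per-mouse values examined for a sample far from the others of its genotype (members with at least 30 UMIs in a class), 4 stood out, and chance gives about 1 in 20 such groups. R182C-TgN3 4 had 2.27% plexus cells among kept cells, against 0.524% in the next R182C-TgN3 mouse. The same mouse had 3.997% ependymal cells, against 0.0499% in the next. Enpp2 in EC was 67.7 CPM in R182C-TgN3 6, against 54.0 in the next R182C-TgN3 mouse, and 88.5 CPM in WT-TgN3 3, against 64.8 in the next WT-TgN3 mouse. These last 2 mice were the only ones of batch 4. Whether batch has a part in these Enpp2 values was not tested.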

How the results depend on the processing

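The counts of genes called between genotypes were 0 in EC and 1 in SMC under every alternative run. No member passed the test under any of 378 alternative values of 14 member fold changes, of which 9 changed direction. In plexus cells these 14 covered Ttr and Slc4a5 only. The other members there were not among the genes called under any alternative. In microglia 1 gene, Negr1, was called without WT-TgN3 5 (range 0 to 1 leaving out each mouse). In plexus cells 3 genes (Xist, Uty and Ddx3y, which differ between sexes) were called with batch as a covariate and 3 with the replicate number as a block. The log2 fold change of Trpm3 in SMC was 0.031 with batch as a covariate and -0.38 to 0.040 leaving out each mouse. That of Ttr in plexus cells was -0.021 with batch as a covariate, -0.027 with the replicate block, -0.61 with at least 1000 genes per cell and -0.13 to 0.84 leaving out each mouse, and that of Slc4a5 was 0.039 with sex as a covariate.

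The genotype difference in the share of plexus cells was -0.0969 points with at least 1000 genes, -0.0122 with Ttr at 10% or more, -1.75 by library UMIs, and -0.252 (without R182C-TgN3 4) to 0.281 (without WT-TgN3 1) leaving out each mouse. The replicate numbers of the labels restart at each age, unlike the mouse numbers used here, and match 5 pairs of mice of 1 age, which also share a batch date. Within these pairs the deviations from the group means had correlations of -0.31 to 0.18 in EC, -0.14 to 0.16 in SMC and 0.02 to 0.38 in microglia, over 0.1 in all pairs but 1 in microglia but in no class in every pair, so the numbers were not taken as pairing the mice. The replicate block gave a difference of 0.177 (exact permutation test, p = 0.5625).

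Pearson's r with the share of plexus cells in EC, microglia, SMC and for fenestrated EC was 0.050, 0.053, 0.075 and 0.063 with at most 20% mitochondrial UMIs, and 0.13, 0.17, 0.17 and 0.28 on log2 values. Centred within batches it was 0.020, 0.024 and 0.081 for the first 3. For fenestrated EC it was 0.15 with at least 250 genes, 0.024 with at least 1000 and 0.21 with Ttr at 10% or more. Leaving out each mouse gave -0.42 to 0.095 in EC, -0.39 to 0.037 in microglia, -0.36 to 0.065 in SMC, -0.20 to 0.45 for fenestrated EC and 0.32 to 0.95 for ependymal cells, where 0.095, 0.037, 0.065, 0.45 and 0.32 were the values without R182C-TgN3 4.

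Alternatives chosen after seeing the data gave, for EC, microglia, SMC, fenestrated EC and ependymal cells in this order, the following r. Without the 2 mice farthest from the median share it was 0.54, 0.50, 0.56, 0.79 and 0.12. With the share of plexus cells but without shared barcodes it was -0.25, -0.23, -0.22, -0.071 and 0.84. With the share of all deposited barcodes it was 0.14, 0.17, 0.21 and 0.082 for the first 4. With the share of library UMIs it was 0.92, 0.94, 0.95, 0.66 and -0.17, without shared barcodes 0.93, 0.93, 0.96, 0.65 and -0.18, without the 2 mice farthest from that median 0.88, 0.92, 0.94, 0.72 and -0.12, and batch-centred 0.90, 0.90, 0.92, 0.65 and 0.083. For fenestrated EC this r was 0.64 without WT-TgN3 5 and 0.59 without the fenestrated cluster held mostly by that mouse. The cause of these shifts was not tested. No ependymal cluster was found with at least 1000 genes, and log2 values of its share could not be taken where it was 0. Members with few UMIs outside the plexus, such as Otx2 with 1 in SMC, are limited by depth.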
